A study of Mus musculus with 8 samples.

Results

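The 10 transcripts described here belong to the machinery that carries and ends signals of G protein-coupled receptors. They were measured in marginal zone B cells (MZBs), which sit at the border of white and red pulp in the spleen and respond early to blood-borne antigens. They are the receptor kinases Grk5 and Grk6, the beta-arrestins Arrb1 and Arrb2, the G protein alpha subunits Gnai2, Gnai3, Gna13, Gnaq and Gnas, and the receptor Calcrl. These genes were chosen by name, with earlier results of these data known, and each of the 10 was found among the 23997 genes of the deposited table. The study sequenced RNA of MZBs from C57BL/6 mice in 8 libraries, 4 labelled ACKR3- and 4 labelled ACKR3+, from 4 mice in each group by the design text. The titles name the same groups GFP- and GFPposi, and no label gives the age of the mice, the reporter allele or the sort. ACKR3, an atypical receptor for the chemokine CXCL12, does not couple to G proteins in the classical way, so the arrestins and receptor kinases are its best known partners. For each gene the table holds 1 estimated fragment count and 1 variance in a condition named q1, and the same in a condition named q2. No label ties q1 or q2 to ACKR3+ or ACKR3-, so each value is given by condition name and no direction with respect to the receptor is assigned.

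After a ligand binds, a G protein-coupled receptor makes a G protein release its alpha subunit, which acts on enzymes such as adenylyl cyclase or phospholipase C, or on guanine nucleotide exchange factors. Receptor kinases then phosphorylate the receptor tail, and beta-arrestins bind it, block further coupling and lead the receptor to clathrin-coated pits. Marginal zone B cells depend on such receptors for sphingosine-1-phosphate, chemokines and oxysterols to hold their place and to shuttle to the follicle, and Gi proteins carry most of these signals.

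The estimated fragments summed to 16877559 in q1 and 16653774 in q2, and whether these estimates were scaled is not stated. How deeply single libraries were sequenced is unknown. With a single value in each condition, differences could not be checked against replicates, and p-values are left out. Log2 ratios divide q2 by q1 with a pseudocount of 1, and the value after ± is the SD implied by the deposited variances. Ackr3 itself was 6.91-fold higher in q1, with 1030 ± 100.1 fragments against 149 ± 23.7. The B cell genes Cd79a, Cd79b and Ms4a1 and the marginal zone genes Cr2, Cd1d1, Cd9, S1pr1 and S1pr3 were abundant in both conditions. The 9 B cell and marginal zone markers reported here, Pax5 included, were higher in q1 (8 after the correction described below), 3 of them by more than 2 SD. Germinal center and plasma cell markers were higher in q2 in 12 of 12 cases, with summed fragments of 8414 in q1 and 47464 in q2. Igj alone gave 3234 and 33006 of these fragments, and Prdm1 was only 1.19-fold higher in q2. Cell cycle markers were higher in q2 in 10 of 10 cases, with 2715 and 10329 fragments. Macrophage and monocyte markers summed to 1620 and 1082 and T cell markers to 993 and 1302. These sums hold differences in both directions. Of 8 macrophage and monocyte markers above 100 fragments Csf1r, Vcam1, Slc40a1, Hmox1 and, only just, Spic were 2-fold higher in q1 and Ly6c2 in q2. Of 3 such T cell markers Cd28 was 2-fold higher in q2, while Lck stood at 0.39 ± 0.22 and Zap70 at -0.52 ± 0.30. Lck alone gave 524 and 689 of the T cell marker fragments. Neutrophil markers summed to 89.0 and 79.8 and platelet markers to 107 and 104. Of all these lists only Treml1, a platelet gene, was at 0 in both conditions. Whether these other cell states bear on the values below was not tested, and in bulk RNA a different number of cells of a type cannot be told apart from a different amount of RNA per cell.

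The ratios of the 10 transcripts between the conditions were, in the median, about as small as those of all genes. All 10 reached 100 fragments in the higher condition, the minimum used for ratios. None was at least 2-fold apart, where 2.28% of the 9582 genes above that minimum were, and none was 1.5-fold apart, where 4.97% were. None was more than 2 SD apart, where 6.26% of genes were, and 3 were more than 1 SD apart, where 19.5% of genes were. Their median log2 ratio was -0.01, beside 0.00 for all genes, and their median absolute log2 ratio was 0.09, beside 0.10. Higher in q2 were 4 of the 10, beside 50.2% of all genes, but this split became 7 of 10 when the columns were scaled to equal totals and 8 of 10 after a correction for GC content, transcript length and expression. With so few genes, counts of 0 near these backgrounds do not set the 10 apart from other genes. An absent call also does not show equality: 2 SD on either side of the Gnas ratio, the ratio nearest to 0, ran from 0.777-fold to 1.28-fold.

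**Figure D1:**
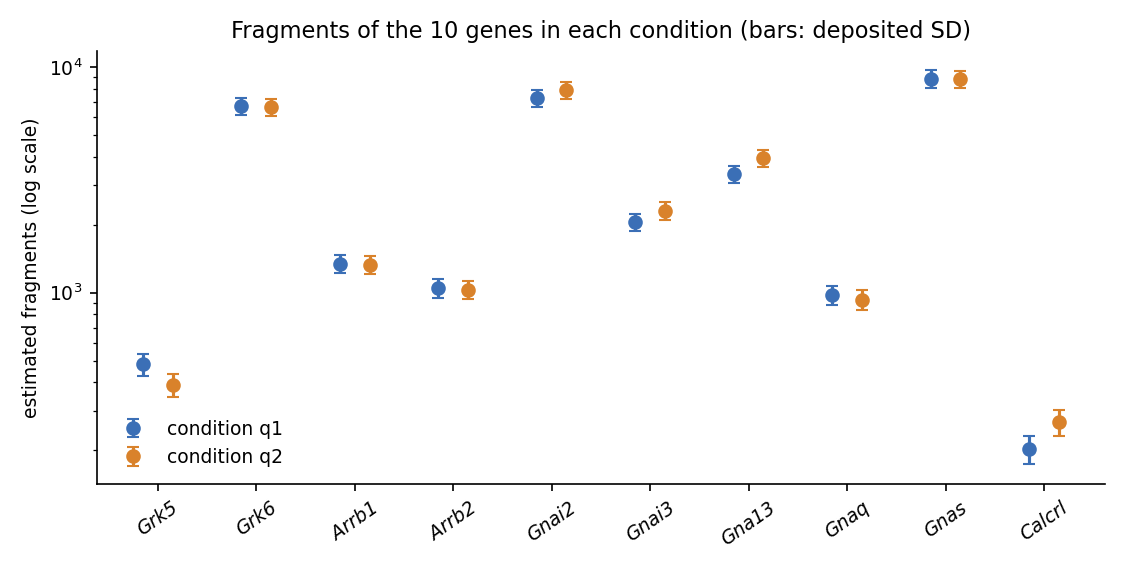
Estimated fragments (vertical axis, log scale) of the 10 genes in condition q1 (blue) and q2 (orange), with bars of 1 deposited SD. The bars of the 2 conditions overlap for each gene, and levels run from about 203 fragments for Calcrl in q1 to 8862 for Gnas in q1.

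Among the receptor kinases, Grk6 was abundant and Grk5 scarce. Grk6, a kinase of the GRK4 subfamily that is prominent in lymphoid cells, lies on chromosome 13 from 55445072 to 55460927 (GRCm38). It had 6705 ± 583 fragments in q1 and 6648 ± 573 in q2 (deposited SD). Those counts differed by less than 1% and the log2 ratio was -0.01 ± 0.18. Grk5, the other member of that subfamily here, which binds membrane lipids and can enter the nucleus, lies on chromosome 19 from 60889749 to 61095968. It had 481 ± 53.6 fragments in q1 and 390 ± 45.9 in q2. Grk5 was thus lower in q2 at a log2 ratio of -0.30 ± 0.23, or 1.29 SD, and the 1 SD ranges of its counts overlapped. Of the genes tested, 13.0% had a larger absolute ratio than Grk5.

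The beta-arrestins did not separate the conditions. Arrb1, beta-arrestin 1 (chromosome 7, 99535466 to 99606771), had 1342 ± 124 fragments in q1 and 1330.4 ± 122 in q2. Its log2 ratio was -0.01 ± 0.19. Arrb2, beta-arrestin 2 (chromosome 11, 70432635 to 70440828), the form bound by many chemokine receptors and by ACKR3, had 1045 ± 100.2 fragments in q1 and 1030.3 ± 98.4 in q2. Its log2 ratio was -0.02 ± 0.20, and 2 SD on either side ran from 0.752-fold to 1.29-fold. The ratio of Arrb1 to Arrb2 was also near equal, with a difference of log2 ratios of 0.01 ± 0.27. The signs for Grk6 and Arrb1 turned under equal totals, to 0.01 each, and those for Grk6, Arrb1 and Arrb2 under the correction, to 0.07, 0.04 and 0.03.

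Both Gi subunits had ratios toward q2, below 1 SD as deposited. Gnai2, which carries most chemokine receptor signals in lymphocytes, lies on chromosome 9 from 107614125 to 107635367. It had 7293 ± 633 fragments in q1 and 7871 ± 687 in q2. The log2 ratio of Gnai2 was 0.11 ± 0.18, or 0.62 SD. Gnai3, a close paralog (chromosome 3, 108107280 to 108146146), had 2053 ± 182 fragments in q1 and 2305 ± 202 in q2. Its log2 ratio was 0.17 ± 0.18, or 0.93 SD. Neither gene left the overlap of its 1 SD ranges, and the ratio of Gnai3 to Gnai2 differed between conditions by only 0.06 ± 0.25 on the log2 scale. After the correction the order of these ratios turned, with Gnai2 at 0.19, or 1.06 SD, and Gnai3 at 0.10. With equal totals Gnai3 came to 1.03 SD. Gnai1, the third inhibitory isoform, was essentially undetected, with 0 fragments in q1 and 0.21 in q2.

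Gna13, Gnaq and Gnas stand for the other classes of alpha subunits. Gna13, which activates guanine nucleotide exchange factors and confines B cells through receptors such as S1PR2, lies on chromosome 11 from 109362831 to 109401369. It had 3349 ± 294 fragments in q1 and 3933 ± 344 in q2. Gna13 was thus higher in q2 by 17.4%, at a log2 ratio of 0.23 ± 0.18, or 1.30 SD. Gnaq, which activates phospholipase C beta, lies on chromosome 19 from 16132831 to 16387463. It had 976 ± 97.0 fragments in q1 and 930.5 ± 92.9 in q2. Those levels gave a log2 ratio of -0.07 ± 0.20. Gnas, which encodes the stimulatory subunit Gs alpha from an imprinted locus with several promoters, lies on chromosome 2 from 174284320 to 174346744. It had 8862 ± 776 fragments in q1 and 8831 ± 782 in q2. Its log2 ratio of -0.01 ± 0.18 was the smallest of the 10 in size, and 97.5% of genes had a larger one. The sign for Gnas turned under equal totals, to 0.01, and under the correction, to 0.08.

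Genes on the opposite strand overlap exons of Gna13 and Gnas, and no label gives the strand setting of the count. The antisense gene Gm11696 shares 2.35% of the annotated exon bases of Gna13 and had 126 fragments in q1 and 140 in q2. Nespas shares 8.83% of the exon bases of Gnas and had 2.46 and 2.94 fragments. Gm20721, annotated as protein coding, shares 13.1% of the exon bases of Gnas, and no fragments under that name were available.

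Calcrl, the calcitonin receptor-like receptor, is the only receptor among the 10 and was the scarcest transcript. It lies on chromosome 2 from 84330626 to 84425411. It had 203 ± 29.2 fragments in q1 and 266 ± 35.2 in q2. Calcrl was higher in q2 at a log2 ratio of 0.39 ± 0.28, or 1.39 SD, which was the largest of the 10 in size; 8.83% of all genes had a larger one. After the correction its log2 ratio was 0.19, or 0.68 SD, and those of Grk5, at -0.33, and Gna13, at 0.23, were larger in size.

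Calcrl needs a receptor activity-modifying protein to reach the cell surface, and the transcripts of all these partners were near 0. Ramp1, which makes it a receptor for calcitonin gene-related peptide, had 3.09 fragments in q1 and 2.30 in q2. Ramp2 and Ramp3, which make it an adrenomedullin receptor, had 1.13 and 0.48 fragments in q1 and 0.47 and 2.51 in q2. The related receptor Calcr and the ligands Calca, Calcb, Adm2 and Iapp were listed at 0 in both conditions, and the ligand Adm had 19.6 and 10.3 fragments. Crcp, a component of this receptor complex that also serves RNA polymerase III, stood at -0.02 ± 0.23, with 486 and 479 fragments. Endothelial cells are a well-known site of Calcrl, and all 14 endothelial markers lay below 100 fragments. Their summed fragments were 150 in q1 and 95.4 in q2, and their part in the Calcrl values was not tested. Cdh5 had 79.9 and 61.5 fragments, Kdr 4.74 and 1.08, and Lyve1 0 in both.

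**Figure D2:**
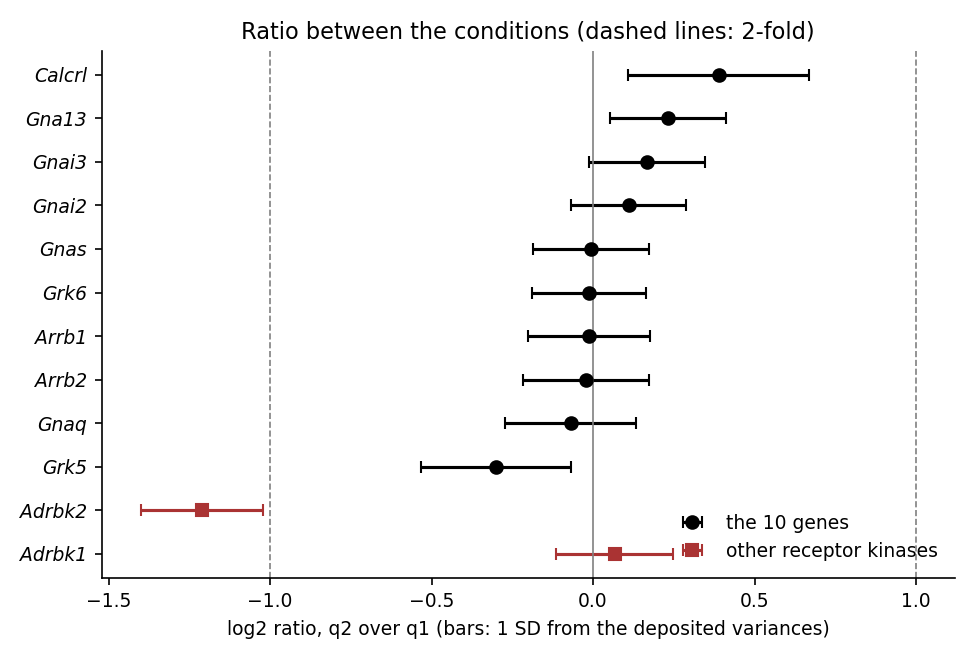
Log2 ratio of q2 over q1 (horizontal axis) for the 10 genes (black) and for the receptor kinases Adrbk1 and Adrbk2 (red), with bars of 1 SD from the deposited variances and dashed lines at 2-fold. The 10 genes lie between -0.30 for Grk5 and 0.39 for Calcrl, and Adrbk2 lies at -1.21.

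The 3 genes more than 1 SD apart were Calcrl, Gna13 and Grk5. This set depends on the scaling: after the correction Calcrl left it and Gnai2 entered, and with equal totals Gnai3 joined it. The promoters of the 3 are shown because these genes had the widest ratios as deposited and, as read below, differ in base composition. The sequences are from RefSeq (GRCm38.p6), which gave promoters for 7 of the 10 genes, all but Arrb1, Arrb2 and Gnai2. Each is the 250 bases before the start annotated by RefSeq, 5′ to 3′ on the strand of the gene, with CG dinucleotides in capitals. For Calcrl, GENCODE M21 places the start further upstream, so that 145 of these bases lie inside its gene.
Calcrl, chr2:84425267-84425516, minus strand: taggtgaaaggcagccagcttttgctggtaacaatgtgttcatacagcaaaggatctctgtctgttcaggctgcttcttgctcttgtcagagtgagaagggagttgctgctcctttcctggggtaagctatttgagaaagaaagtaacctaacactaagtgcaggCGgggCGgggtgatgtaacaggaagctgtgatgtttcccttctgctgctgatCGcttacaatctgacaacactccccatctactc
Gna13, chr11:109362544-109362793, plus strand: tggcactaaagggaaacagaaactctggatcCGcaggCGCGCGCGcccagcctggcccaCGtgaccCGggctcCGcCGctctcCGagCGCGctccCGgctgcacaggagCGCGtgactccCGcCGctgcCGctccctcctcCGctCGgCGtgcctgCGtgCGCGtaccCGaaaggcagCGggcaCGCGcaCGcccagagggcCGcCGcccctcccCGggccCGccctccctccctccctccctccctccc
Grk5, chr19:60889499-60889748, plus strand: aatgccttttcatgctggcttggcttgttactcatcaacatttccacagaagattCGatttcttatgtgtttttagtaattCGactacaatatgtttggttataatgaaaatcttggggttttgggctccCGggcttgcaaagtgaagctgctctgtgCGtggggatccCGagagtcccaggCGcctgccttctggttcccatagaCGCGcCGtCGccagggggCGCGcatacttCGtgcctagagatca

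The Calcrl window held 3 CG dinucleotides, fewer than the median of 6 over the 32851 promoters of the table. The Grk5 window held 13, and that of Gna13 held 33, more than 96.0% of promoters. Among the other matched genes, the Gnaq window held 37, that of Gnai3 held 18, the 3 annotated windows of Grk6 held 16, 27 and 28, and the 4 of Gnas held 14 to 29. Of the matched genes, the scarcest transcript thus had the CG-poorest window. The CG-richest window was that of Gnaq, which had fewer fragments than Gna13, Gnai3, Grk6 and Gnas. Searched on both strands, the GC box letters GGGCGG stood in windows of Calcrl, Gna13, Grk6, Gnaq and Gnas, but not of Grk5 or Gnai3. They stood in 32.7% of all promoters. The letters CCAAT (33.8% of promoters), TATAAA (12.4%) and TGACG (17.8%), the last being the core of a cAMP response element, stood in none of the 3 windows shown. TGACG stood at 2 places in the windows of Gnas and in none of the other matched genes. Windows of a gene can overlap: 231 bases are shared by a pair of the Gnas windows and 248 by a pair of those of Grk6. These matches describe letters only.

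Set per kb of the longest annotated transcript (GENCODE M21), Gnai2 had the highest level, with 3293 ± 286 fragments per kb in q1 and 3553 ± 310 in q2. Gnas, at 2245 and 2237 fragments per kb, and Grk6, at 2239.5 and 2220.3, followed and did not differ from each other beyond their SD. A middle tier held Gnai3, at 629 and 707 fragments per kb, Gna13, at 544 and 639, and Arrb2, at 566 and 558, whose neighbouring levels lay within 1.18 SD of each other. Arrb1, at 188 and 186, and Gnaq, at 173 and 165, came next and were within 1 SD of each other. Grk5, at 73.0 and 59.3, and Calcrl, at 41.6 and 54.5, were lowest, and they were 3.09 SD apart in q1 but 0.48 SD in q2. The length sets part of this order: with the median length of the coding transcript models, which include short ones, Gnai2, Gnas, Grk6 and the lowest 3 genes kept their places, but Gnas and Grk6 were then 4.19 SD apart in q1 and 4.22 in q2, and Grk5 and Calcrl 3.32 SD apart in q2. By that length Arrb1 came to 639 and 633 fragments per kb beside 724 and 714 for Arrb2.

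Within each paralog pair the balance differed between the conditions by less than 1 SD on the log2 scale. The widest difference was that of Grk5 to Grk6, at -0.29 ± 0.29. For Arrb1 to Arrb2 it was 0.01 ± 0.27 and for Gnai3 to Gnai2 0.06 ± 0.25. With SDs of this size an equal balance is not shown. Per kb of the longest transcript, Arrb1 made up 25.0% ± 2.5 of the beta-arrestin fragments in q1 and 25.1% ± 2.5 in q2. Gnai3 made up 16.1% ± 1.7 and 16.6% ± 1.7 of the Gnai2 and Gnai3 fragments. Grk5 made up 3.16% ± 0.43 and 2.60% ± 0.37 of those of Grk5 and Grk6. The 1 SD ranges of each share overlapped between the conditions, but the shares depend strongly on the length used, and with the median coding length Arrb1 made up 46.9% and 47.0%.

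**Figure D3:**
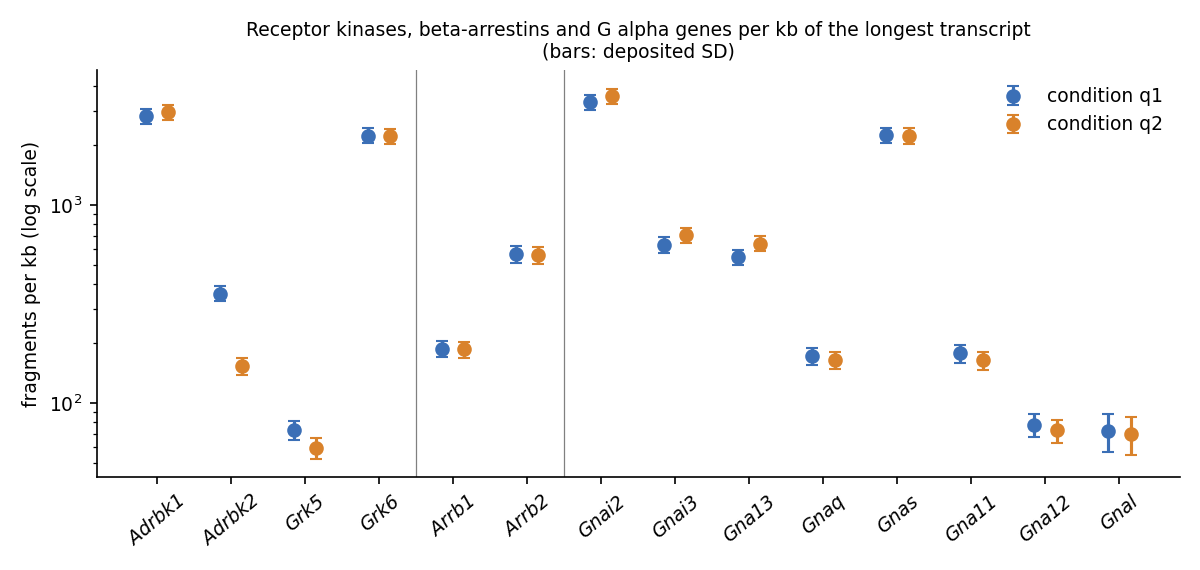
Fragments per kb of the longest transcript (vertical axis, log scale) for the receptor kinases, beta-arrestins and G alpha genes in q1 (blue) and q2 (orange), with bars of 1 deposited SD. Adrbk2 is the gene whose conditions lie apart, at 357 and 154 fragments per kb.

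The receptor kinase that did differ was not Grk5 or Grk6 but Adrbk2, which encodes GRK3. Adrbk2 and Adrbk1, the gene of GRK2, form the subfamily that is recruited to receptors by free G beta-gamma dimers. Adrbk2 had 2333 ± 206 fragments in q1 and 1007 ± 98.4 in q2. The 1 SD ranges did not overlap, and it was 2.32-fold higher in q1, at a log2 ratio of -1.21 ± 0.19, or 6.38 SD. Adrbk1 had 9771 ± 867 and 10236 ± 913 fragments, at 0.07 ± 0.18. The log2 ratio of Adrbk2 was below that of Adrbk1 by -1.28 ± 0.26, below that of Grk6 by -1.20 ± 0.26 and below that of Grk5 by -0.91 ± 0.30. Per kb, Adrbk2 made up 6.52% of the fragments of these 4 kinases in q1 and 2.87% in q2, while Adrbk1 made up 51.3% and 54.8%. The Adrbk1 share depends on the length used and was 81.0% and 84.8% with the median coding length, where that of Adrbk2 was 6.23% and 2.69%. Under the alternative pseudocounts, scalings and the correction the ratio of Adrbk2 stayed between -1.21 and -1.19.

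The remaining kinases and arrestin relatives gave no other call. In that list of 12 genes, 8 reached 100 fragments. Of these, 3 were toward q2 and 5 toward q1, and the median log2 ratio was -0.02; with equal totals 5 were toward q2. Besides Adrbk2 the widest ratios were those of Arrdc2, an arrestin-domain protein, at -0.30 ± 0.25, of the testis-enriched kinase Grk4, at -0.20 ± 0.37, and of the rod photoreceptor kinase Grk1, at 0.11 ± 0.31. The photoreceptor arrestins Sag, with 26.9 and 21.1 fragments, and Arr3, with 0.31 and 0.21, were scarce.

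Where abundant, alpha, beta and gamma subunits outside the 10 genes also had small ratios. Of 11 further alpha subunits 4 reached 100 fragments and none was 2-fold or 2 SD apart, with Gna15 at 0.35 ± 0.37, Gna11 at -0.12 ± 0.22, Gna12 at -0.09 ± 0.27 and Gnal at -0.04 ± 0.45. All 7 beta and gamma subunits above the minimum were higher in q2, where 50.2% of all genes were, but only 6 of 7 after the correction. Their median log2 ratio as deposited was 0.08. Gnb1 stood at 0.10 ± 0.18, Gnb2 at 0.08 ± 0.18 and Gngt2 at 0.08 ± 0.34. Gng12, a gamma subunit, had 77.7 ± 15.6 fragments in q1 and 157 ± 24.8 in q2. It met the 2-fold rule only just, at 2.02-fold and 2.75 SD, and missed it with a pseudocount of 10 and after the correction.

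**Figure D4:**
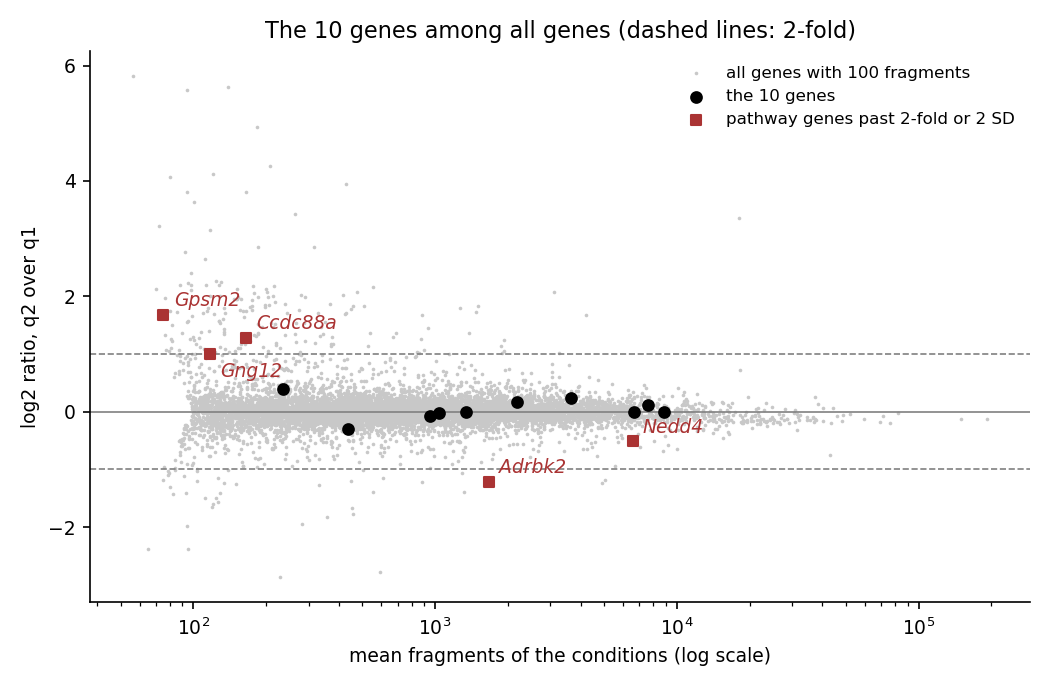
Log2 ratio of q2 over q1 (vertical axis) against the mean fragments of the conditions (horizontal axis, log scale) for all 9582 genes that reached 100 fragments in the higher condition (grey), the 10 genes (black) and the pathway genes that were 2-fold or more than 2 SD apart (red). The 10 genes lie within the dense band around 0, and Adrbk2, at -1.21, lies below it.

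Proteins that load or guide alpha subunits gave ratios past 2-fold in 2 of 7 genes above the minimum, where 2.28% of all genes were at least 2-fold apart. Ccdc88a, which encodes the Gi-binding exchange factor girdin, had 96.0 ± 18.0 fragments in q1 and 235 ± 32.4 in q2. That is a log2 ratio of 1.28 ± 0.33. Gpsm2, whose protein LGN holds Gi alpha at the cell cortex during mitotic spindle orientation, had 35.2 ± 16.9 and 115 ± 42.1 fragments. Its log2 ratio was 1.68 ± 0.85, which is 1.98 SD; it passed 2 SD with a pseudocount of 10. Both genes, like Gng12, reached the minimum only through q2. For Ccdc88a, at 96.0 fragments in q1, a slightly higher value in q2 was enough, so the minimum did not require a 2-fold difference. Gpsm2, at 35.2 fragments in q1, had to be more than 2-fold apart to be counted. With a minimum of 500 none of the 4 genes left in the list was 2-fold apart. Cell cycle and germinal center markers were higher in q2 beside these genes, as given above. The chaperone Ric8, which folds alpha subunits, stood at -0.17 ± 0.20, Gpsm1 at -0.15 ± 0.29 and the list's median at 0.02.

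Downstream enzymes and the endocytic machinery showed 1 call. Of the 12 effectors above the minimum 10 were higher in q1 (9 after the correction), with a median of -0.12 and none past 2-fold or 2 SD. Of all genes, 50.2% were higher in q2. Adcy9, an adenylyl cyclase, had 163 ± 24.9 fragments in q1 and 105 ± 18.8 in q2. Its log2 ratio was -0.64 ± 0.34, and it passed 2 SD only after the correction. Adcy3 stood at -0.23 ± 0.34, Arhgef1, the exchange factor that Gna13 activates in lymphocytes, at -0.18 ± 0.20 and Arhgef12, a related exchange factor, at -0.16 ± 0.18. The 18 clathrin pathway genes were split into 10 toward q2 and 8 toward q1, or 13 and 5 after the correction, had a median of 0.03 and gave no call. The widest ratios were those of Arf6 at 0.25 ± 0.18, Rab5a at 0.24 ± 0.21 and Epn1 at -0.19 ± 0.18. The 15 ubiquitination and sorting genes were split into 7 toward q2 and 8 toward q1, or 9 and 6 with equal totals, and their median was -0.01. The call was Nedd4, a ubiquitin ligase that acts on receptors and arrestins, with 7713 ± 676 fragments in q1 against 5403 ± 467 in q2. This difference came to -0.51 ± 0.18, or 2.89 SD. Usp20 stood at -0.26 ± 0.24, Snx27 at 0.21 ± 0.19 and Mdm2, which ubiquitinates beta-arrestin, at 0.11 ± 0.18.

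Over all lists outside the 10 genes, 72 of 116 pathway genes reached the minimum, and 4 of the 72 were at least 2-fold apart and 4 more than 2 SD apart. Both shares are 5.56%, where 2.28% and 6.26% of all genes met these rules. Of the 4 genes 2-fold apart, 3 reached the minimum only in their higher condition; with a minimum of 500 fragments Adrbk2 alone of 52 genes was 2-fold apart. These counts set nothing apart from other genes.

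**Figure D5:**
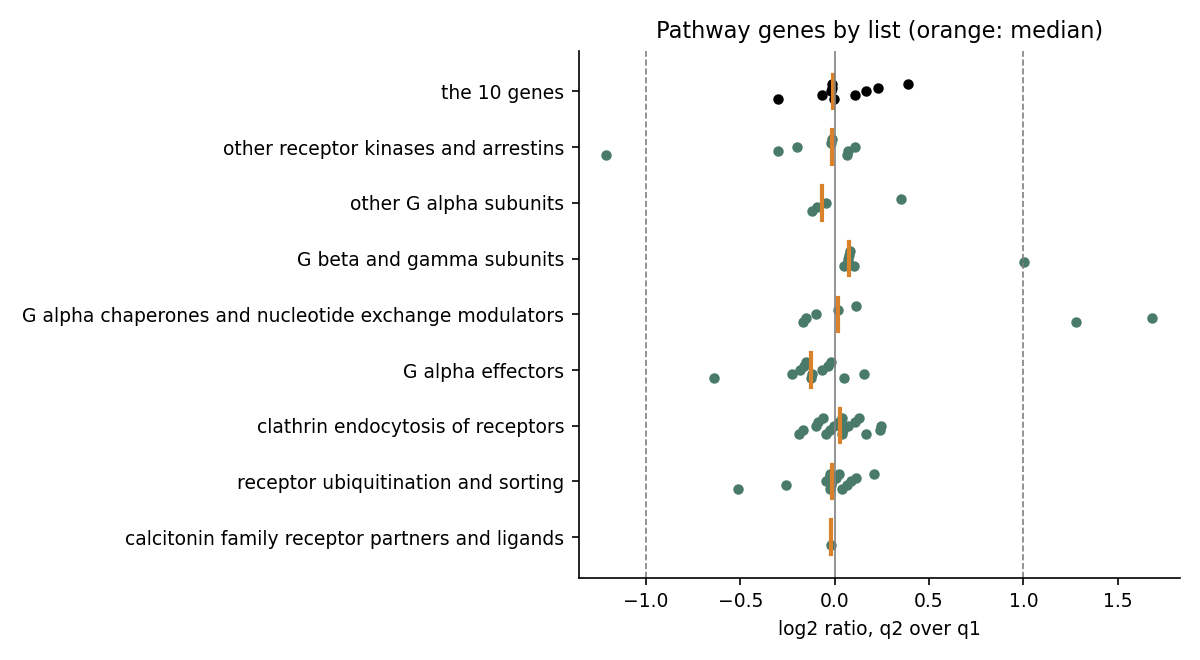
Log2 ratio of q2 over q1 (horizontal axis) of each gene above the minimum (points) in the 10 genes and in 8 lists of the same pathway, with the list's median (orange) and dashed lines at 2-fold. Each median lies between -0.12 and 0.08, and the points past 2-fold are Adrbk2, Gng12, Ccdc88a and Gpsm2.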

How the data were processed

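Per the labels' protocols, RNA was extracted with Trizol and libraries were made with an Illumina TruSeq kit. Per the submitters' processing notes, reads were handled with TopHat2 2.0.14, cutadapt 1.8.1 and, on build mm10, Cuffdiff 2.2.1. The sources used here do not give the annotation, strand setting or filters. Per the file headers, the authors deposited Cuffdiff's table of estimated counts (fragments) with a variance for each condition. The part of the variance listed for isoform assignment was 0 for each gene. Some genes outside the 10 still had very wide SDs, such as Abca7 with 2412 ± 2199 fragments in q1. Whether the SDs hold such error is therefore not known. For the 10 genes the SDs follow the level: the CV of each (8.62% to 14.4%) was 0.995 to 1.03 times the median of the 101 genes nearest in count. Whether the variance is that of a library or of a mean is not stated.

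Ratios (pseudocount 1), their first-order SDs, and counts of genes at least 2-fold or more than 2 SD apart were computed with pandas 2.3.3 and scipy 1.17.1. The counts cover genes reaching 100 fragments in the higher condition. The ratios and SDs were also run on values simulated with the deposited variances. That run checks the arithmetic and not whether the variances are right. A count test planned for library values was not run. The 2-fold rule and the SD rule describe; they are not tests. Lengths and positions came from GENCODE M21, where 22694 symbols matched directly and 901 by synonym. The genes and lists were chosen with earlier results of these data known. Named are the 10 genes, Ackr3, up to 4 genes per pathway list by size of ratio and any 2-fold or 2 SD apart; markers, scarce genes and partners named beyond this were chosen after their values were seen. Alternatives were minimums of 20 and 500, pseudocounts of 0 and 10, equal totals, the median ratio, a correction for GC content, length and expression (squared terms included), 1.5-fold, 1 SD and another transcript length. One B cell marker of the planned list is not reported here.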

Additional observations from a re-analysis of the deposited data

How the results depend on the processing

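No paired analysis was possible because libraries are pooled in the table. Leaving out a library, count tests and filters on library counts could not be run either. The number of the 10 genes at least 2-fold apart was 0 under each alternative tried, and also by a 1.5-fold rule, which 4.97% of all genes met. The number more than 2 SD apart was 0 under each alternative except the rule of 1 SD, which gave 3 by construction. Of 50 recomputed ratios of the 10 genes, each moved by less than its deposited SD; 7 had another sign, for Grk6, Arrb1, Arrb2 and Gnas, whose ratios were nearest to 0. The largest move was 0.20, for Calcrl under the correction, which took it below 1 SD. The median of the 10 was 0.01 with equal totals and 0.08 corrected. With a minimum of 500 fragments Grk5 and Calcrl dropped out. Exact (Clopper-Pearson) 95% counting intervals, which take the estimated fragments as if counted and hold no other error, lay off equality for 5 genes: Grk5, Gnai2, Gnai3, Gna13 and Calcrl. For Calcrl that interval of q2 over q1 ran from 1.09 to 1.58, where 2 deposited SD ran from 0.887 to 1.93.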

Other observations

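Below the minimum of 100 fragments, a few genes of the same families were nearly absent from q1 and present in q2; they were picked after their values were seen. Gnaz, a pertussis toxin-resistant alpha subunit of the Gi class, had 1.29 fragments in q1 and 26.4 in q2. The ratio was 20.5, and its exact 95% counting interval ran from 4.27 to 1066. Gnb4, a beta subunit, had 2.42 and 41.0 fragments, and the interval of its ratio of 17.0 ran from 5.32 to 175. Dnm3, a dynamin that cuts vesicles from the membrane, had 3.96 and 51.8 fragments, and the interval of its ratio of 13.1 ran from 4.78 to 49.5. In the other direction, Gng7, a gamma subunit, had 55.9 and 22.1 fragments, and the interval of its ratio of 0.395 ran from 0.228 to 0.654. The intervals cover counting error only. Germinal center and plasma cell markers were higher in q2 beside the first 3 genes, in 12 of 12 cases, where 50.2% of all genes were. Their sums were 8414 and 47464 fragments, of which Igj alone gave 3234 and 33006. The part of these markers in the values of the first 3 genes was not tested.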
